A study of Mus musculus with 12 samples.

Results

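The genes described here are 42 antiviral genes of the type I interferon response, from interferon beta itself to the RNA sensors, the IFIT, OAS and Mx families, the ISG15 system, antiviral enzymes and the chemokines that bind the receptor CXCR3. They were chosen by name, and all 42 were found among the 24346 genes of the expression table. An FPKM (fragment count scaled by transcript length and by the size of the library) of 1 or more in at least 3 of the 12 libraries was reached by 38 of them, and these were tested together with the 10311 genes that met the same rule. The other 4, Oas2, Mx2, Ifi44 and Cxcl9, were at or near 0 in most libraries and are described by their values alone.

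RNA was sequenced from bone-marrow-derived macrophages of wild-type mice, derived by 7 days of culture in M-CSF, a macrophage growth factor, with 10% serum. There were 4 groups with 3 libraries each: untreated controls, cells given lipopolysaccharide (LPS) at 1 ng/ml for 3 h, cells given tunicamycin at 5 ug/ml, and cells given tunicamycin 3 h before LPS at the same doses. Tunicamycin inhibits the first step of N-linked glycosylation, so that proteins misfold in the endoplasmic reticulum, and LPS comes from the outer membrane of Gram-negative bacteria. The sources used here do not give the exposure of the cells that received tunicamycin alone, nor whether the 3 libraries of a group came from separate animals or cultures, so p-values measure only the spread between these libraries.

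In macrophages LPS is sensed by the receptor TLR4, which signals through the adaptors TRAM (Ticam2) and TRIF (Ticam1) to the kinase TBK1 and the transcription factor IRF3, which switches on the interferon beta gene. Secreted interferon beta binds the receptor IFNAR on the same and neighbouring cells, and the kinases JAK1 and TYK2 then activate a complex of STAT proteins and IRF9. That complex binds interferon-stimulated response elements (ISREs) in the promoters of many genes, whose products sense viral RNA, block its translation, degrade it or stop virus particles from leaving the cell. Some of these genes can also be switched on by IRF3 directly.

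The deposited values are FPKM, so the read depth behind them is unknown. Summed FPKM per library was between 561108 and 685010, and between 9507 and 9741 genes reached 1 FPKM. None of the 1709 genes with a median of 50 FPKM or more was listed at 0 in any library. The summed FPKM of 7 macrophage markers, most of it from Lyz2 and Cd68, was 14212 to 22980 over all libraries. Among lymphocyte markers, Cd8a, Ncr1, Klrb1c and Ms4a1 were listed at 0 in all libraries. The T and NK cell list summed to at most 1.54 FPKM in any library, most of it Cd4, and the B and plasma cell list to 3.83 to 8.63 FPKM, most of it Sdc1. Of the 26 interferon genes that rose with LPS, LPS replicate 2 had the highest level of its group in 20 and LPS replicate 1 the lowest in 23, while over all genes LPS replicate 2 was the highest in 31.9%. Tunicamycin replicate 2 likewise was the highest of its group in 20 of the 26, against 32.3% over all genes. In bulk RNA, fewer responding cells and less RNA per cell cannot be told apart.

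With LPS, 26 of the 38 tested genes rose and 0 fell (limma, Benjamini-Hochberg adjusted p under 0.05 over all genes tested). Over all genes 10.5% rose and 7.86% fell in the same comparison. The median log2 fold change, on the log2(FPKM + 1) scale used throughout, was 1.5 for the 38 genes and 0.00 for all genes. Adding 1 FPKM before the log keeps very low values from dominating, and it understates the change of genes with low levels.

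Tunicamycin alone went with higher levels of 19 of the 38 genes and lower levels of 2, Trim21 and Ifi27l2a, where 17.9% of all genes rose and 16.6% fell. The median log2 fold change of the 38 genes was 0.69, and that of all genes was 0.03. Without tunicamycin replicate 2 the number higher was 15, and the calls of Oasl2, Trim30a, Dtx3l and Rtp4 did not pass (adjusted p = 0.193, 0.125, 0.0761 and 0.137). Without tunicamycin replicate 3 it was 14, as Mx1 did not pass either. Oasl2, Dtx3l and Rtp4 also did not pass without control replicate 1 or 3, nor did Trim30a without control replicate 2 or 3. These calls thus did not depend on tunicamycin replicate 2 alone. The comparisons of LPS and of tunicamycin with control share the 3 control libraries.

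Against cells given tunicamycin alone, cells given both agents had higher levels of 18 of the 38 genes and lower levels of 0. Over all genes these shares were 8.69% and 7%, and the median was 0.55 for the 38 and -0.01 for all genes. The exposure to tunicamycin alone is not given and may differ from that with both agents. In this comparison LPS and the time in tunicamycin cannot be told apart. Cells given both agents were then set against cells given LPS alone, in which 3 genes were higher (Ifih1, Isg15 and Herc6) and 12 were lower, against 13.8% and 15.1% of all genes. The median of the 38 genes was -0.45, beside 0.00 for all genes. Without LPS replicate 2 the number lower was 7 and the median was -0.19. Leaving out LPS replicate 3 also gave 7. Without LPS replicate 1 it was 14, with a median of -0.58: Ifit1, Rsad2 and Cmpk2 then passed as lower and Eif2ak2 did not pass, and the number higher was 2.

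Whether the LPS effect itself differed was tested by the interaction, which is the log2 LPS effect with tunicamycin less the log2 LPS effect without it. It was negative and passed for 12 of the 38 genes and positive for 0, where 1.96% and 1.41% of all genes passed, and its median was -0.74 for the 38 genes and -0.03 for all genes. The 12 were Ifit1, Ifit2, Ifit3, Ifit3b, Oasl1, Usp18, Dtx3l, Rsad2, Cmpk2, Rtp4, Xaf1 and Cxcl10. Without LPS replicate 2, LPS replicate 3 or tunicamycin replicate 2 the number was 9. Without LPS replicate 1 it was 13, and with no filter on low values it was 8. The LPS effect with tunicamycin, here and below, is the comparison in which the time in tunicamycin may differ. The interaction carries the same limit.

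**Figure D1:**
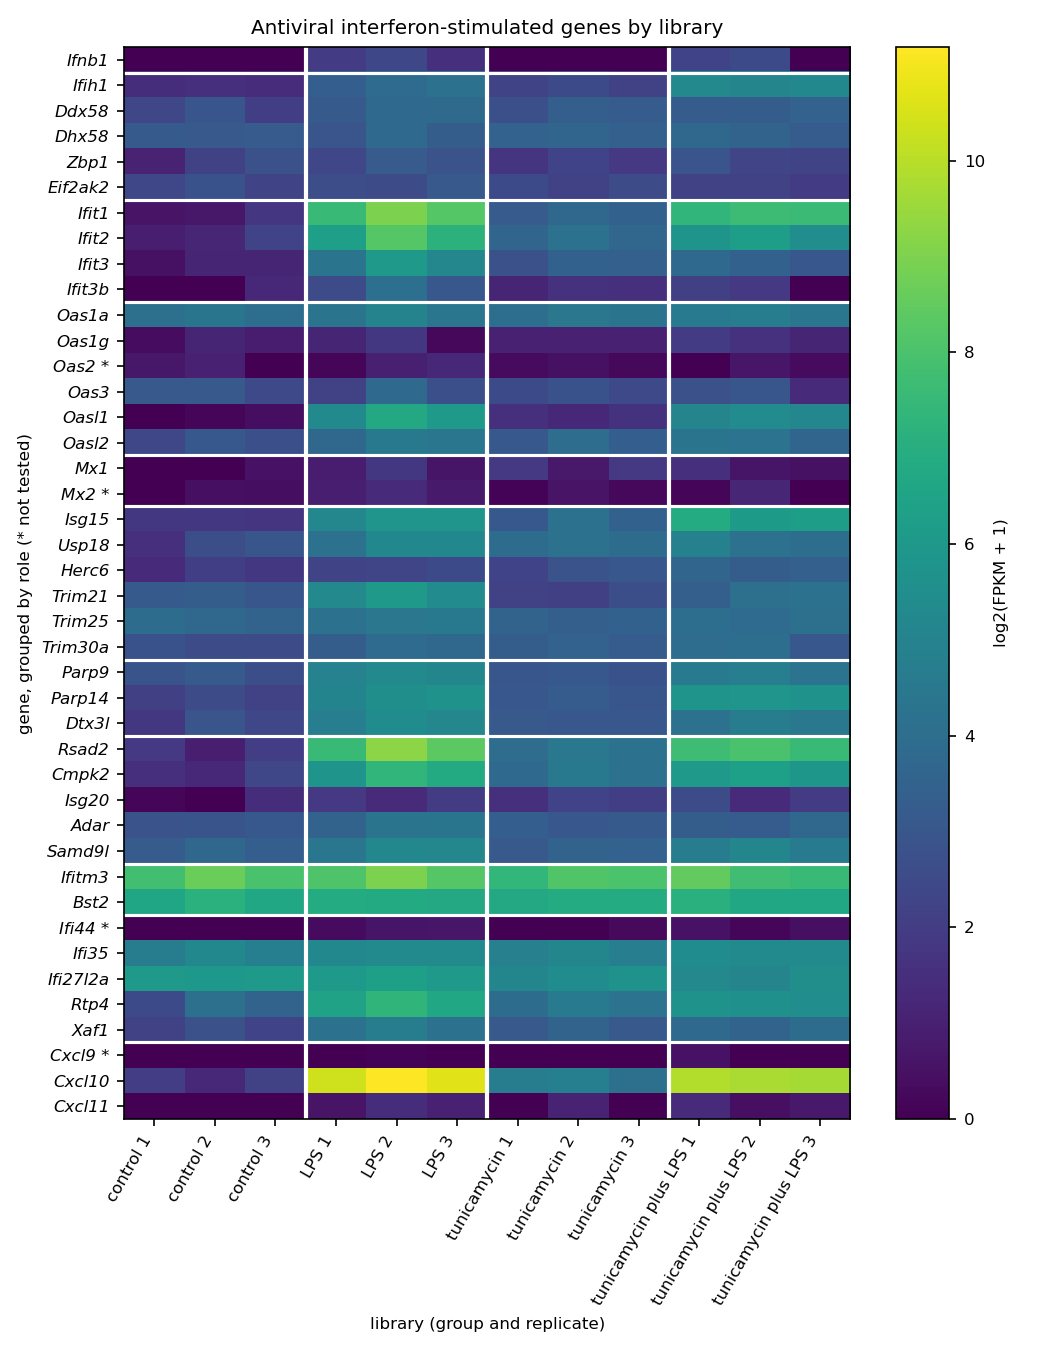
Level of each of the 42 genes (rows, ordered by role, with untested genes starred) in each of the 12 libraries (columns), with colour giving log2(FPKM + 1). Cxcl10, Rsad2, Ifit1 and Ifit2 are bright in the 6 libraries given LPS and above control in the 3 tunicamycin libraries, while Ifitm3 and Bst2 are bright in all 12.

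Promoter sequence was set beside these responses because, as described above, ISREs lie in the promoters of many genes that interferon switches on. RefSeq promoter windows on build GRCm38.p6, each 300 bases long (250 before and 50 after a start site), were matched for 31 of the 42 genes. The ISRE core, GAAA then any 2 bases then GAAA on either strand, was in the windows of 16 of the 31 (51.6%) and of 3.99% of 27025 genes. A loose kappaB pattern, GGG then any 5 bases then CC on either strand, was in 71.0% of the 31 and in 53.5% of all. Among the tested genes with a window, the ISRE core was in 10 of the 21 that rose with LPS and in 6 of the 8 that did not pass. It was in 5 of the 10 with a smaller LPS effect under tunicamycin and in 5 of the other 11 that rose with LPS. A match of letters is a description and not evidence of binding.

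The stretches that hold these matches are printed below 5′ to 3′ on the gene's strand, with the matches named for each gene in capitals and overlapping matches joined. They show the ligand and strong responders first, then 3 genes that carry the core and did not pass with LPS. On the strand printed, the core can read TTTC, any 2 bases, TTTC. In the stretch of Ifnb1 (chr4:88522863-88522925, minus strand) the capitals mark kappaB matches, and in that of Cxcl10 (chr5:92348968-92349117, minus strand) they mark 1 ISRE core followed by kappaB matches. In all others they mark ISRE cores alone, and a kappaB match in the stretch of Bst2 is left in lower case: Ifit1 (chr19:34640770-34640828, plus strand), Ifit3 (chr19:34583358-34583431, plus strand), Rsad2 (chr12:26456548-26456587, minus strand), Isg15 (chr4:156200860-156200911, minus strand), Oas1a (chr5:120907526-120907560, minus strand), Oas3 (chr5:120777710-120777749, minus strand) and Bst2 (chr8:71537572-71537617, minus strand).
Ifnb1: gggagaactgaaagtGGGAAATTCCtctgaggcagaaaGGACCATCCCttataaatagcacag
Cxcl10: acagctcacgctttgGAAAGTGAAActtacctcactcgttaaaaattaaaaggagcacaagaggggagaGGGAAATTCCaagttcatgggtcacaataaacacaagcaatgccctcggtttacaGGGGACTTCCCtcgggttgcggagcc
Ifit1: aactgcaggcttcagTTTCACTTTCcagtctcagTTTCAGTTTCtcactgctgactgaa
Ifit3: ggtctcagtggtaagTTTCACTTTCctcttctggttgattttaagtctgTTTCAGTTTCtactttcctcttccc
Rsad2: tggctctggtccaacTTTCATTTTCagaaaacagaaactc
Isg15: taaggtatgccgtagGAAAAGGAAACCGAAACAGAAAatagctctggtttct
Oas1a: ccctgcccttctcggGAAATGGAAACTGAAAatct
Oas3: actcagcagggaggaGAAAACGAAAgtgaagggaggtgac
Bst2: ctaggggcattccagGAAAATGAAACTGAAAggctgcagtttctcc

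The ligand, Ifnb1 (chr4:88522025-88522774 on mm10, minus strand, in the GENCODE annotation of that build), encodes interferon beta and was seen only in cells given LPS. It was listed at 0 in all control and all tunicamycin libraries, at 2.99, 4.36 and 1.89 FPKM with LPS, and at 3.73, 4.76 and 0 with both agents. All LPS libraries thus lay above the controls, while the libraries given both agents spanned those given LPS alone, with replicate 3 listed at 0. The rise with LPS passed without tunicamycin (adjusted p = 0.00569) and with it (adjusted p = 0.0276). The second call did not pass without any 1 of the tunicamycin libraries or without replicate 1 or 2 of the cells given both agents (adjusted p up to 0.12). The difference between both agents and LPS alone did not pass (adjusted p = 0.569), and its 95% interval, -1.38 to 0.59 on the log2(FPKM + 1) scale, leaves room for a change in either direction. The 10 other interferon genes in the context list were listed at 0 in every library, except Ifng at 0.124 FPKM in 1 library given both agents.

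Of the 5 sensors of foreign or modified nucleic acid, Ifih1 and Ddx58 rose with LPS and Dhx58, Zbp1 and Eif2ak2 did not pass. Ifih1 encodes MDA5, a sensor of long double-stranded RNA. Its FPKM was 1.78, 1.92 and 1.67 in controls, 9.05, 14.1 and 17.5 with LPS, 3.92, 4.70 and 3.49 with tunicamycin, and 37.3, 32.8 and 36.6 with both. The 4 groups did not overlap, and every library given both agents lay above every library of the other groups. LPS raised Ifih1 by a log2 fold change of 2.34 ± 0.21 (SE, adjusted p = 2.21e-07), tunicamycin by 0.85 ± 0.21 (adjusted p = 0.00473), and both agents exceeded LPS alone by 1.37 ± 0.21 (adjusted p = 0.000117). Its interaction, 0.53 ± 0.29, did not pass (adjusted p = 0.437). In linear terms LPS added 11.8 FPKM without tunicamycin and 31.5 FPKM with it.

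Ddx58, which encodes the short-RNA sensor RIG-I, was at 4.81 ± 1.89 FPKM in controls, 11.6 ± 3.08 with LPS, 7.92 ± 1.94 with tunicamycin and 9.26 ± 0.955 with both (mean ± SD, n = 3 each). It passed with LPS (log2 fold change 1.13 ± 0.25, adjusted p = 0.0041) and not for LPS added to tunicamycin (0.22 ± 0.25, adjusted p = 0.619). The interaction did not pass (adjusted p = 0.227), so the LPS effects were not shown to differ.

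Eif2ak2 encodes PKR, a kinase that halts translation when it binds double-stranded RNA. Its FPKM was 4.21, 5.96 and 3.96 in controls, 5.21, 5.09 and 7.62 with LPS, 4.64, 3.43 and 4.97 with tunicamycin, and 3.66, 3.62 and 2.86 with both. The libraries given both agents lay below all controls and all LPS libraries, and they differed from LPS by a log2 difference of -0.66 ± 0.22 (adjusted p = 0.0347). This did not pass without LPS replicate 1 or 3, or without any 1 of the libraries given both agents (adjusted p up to 0.146). Zbp1, a sensor of left-handed nucleic acid that starts necroptosis, was at 1.10, 3.46 and 5.80 FPKM in controls, 4.27, 8.30 and 6.32 with LPS, 2.35, 3.81 and 2.63 with tunicamycin, and 6.81, 4.02 and 3.92 with both. Its controls alone ranged over 5-fold, the groups overlapped, and no comparison passed with all libraries in the fit. Without control replicate 3, the highest control, the rise with LPS passed (1.21, adjusted p = 0.024). Dhx58, which encodes LGP2, a regulator of the other RNA helicases, stayed between 6.83 and 13.1 FPKM in all libraries and passed in no comparison.

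The 4 IFIT genes encode proteins that bind viral RNA and block its translation. All 4 rose with LPS, and all 4 had a smaller LPS effect in the presence of tunicamycin. Ifit1, which recognises RNA lacking the methyl marks of host caps, was at 0.525, 0.658 and 2.37 FPKM in controls, 192, 499.9 and 301 with LPS, 8.16, 12.5 and 10.2 with tunicamycin, and 164, 201 and 196 with both. Tunicamycin alone thus placed Ifit1 above every control and far below every LPS library, and the libraries given both agents overlapped those given LPS. The log2 fold change was 7.24 ± 0.30 with LPS (adjusted p = 1.19e-11), a 151-fold rise, and 2.45 ± 0.30 with tunicamycin (adjusted p = 1.11e-05), a 5.47-fold rise. LPS added to tunicamycin raised it by 4.07 ± 0.30 (adjusted p = 3.66e-08), and the interaction was -3.17 ± 0.43 (adjusted p = 0.000269). Both agents against LPS alone gave -0.72 ± 0.30, which did not pass (adjusted p = 0.085). It passed without LPS replicate 1 (-1.06, adjusted p = 0.0172) and without control replicate 3 (adjusted p = 0.0411).

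Ifit2 was at 0.938, 1.28 and 3.72 FPKM in controls, 79.1, 299 and 144 with LPS, 11.7, 17.3 and 11.8 with tunicamycin, and 53.7, 73.5 and 44.1 with both. The 4 groups did not overlap, and both agents fell short of LPS alone by 1.41 ± 0.38 on the log2 scale (adjusted p = 0.0104). That difference was -0.92 without LPS replicate 2 and did not pass (adjusted p = 0.0642). The interaction for Ifit2 was -3.80 ± 0.54 (adjusted p = 0.000445).

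Ifit3 showed the most negative interaction of the 38 genes. It was at 0.415, 1.23 and 1.21 FPKM in controls, 18.7, 65.0 and 35.4 with LPS, 5.87, 10.0 and 9.63 with tunicamycin, and 13.1, 10.0 and 7.17 with both. The libraries given both agents overlapped those given tunicamycin alone and lay below all 3 given LPS. LPS raised it by 4.24 ± 0.35 without tunicamycin (adjusted p = 8.88e-08) and by 0.22 ± 0.35 with it (adjusted p = 0.739), and the interaction was -4.02 ± 0.49 (adjusted p = 0.000114). The linear increment was 38.7 FPKM without tunicamycin and 1.59 FPKM with it, and the mean with both agents was 25.5% of the LPS mean.

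Its near-identical copy Ifit3b was at 0, 0 and 1.38 FPKM in controls, 4.97, 15.9 and 7.32 with LPS, 1.25, 1.98 and 1.94 with tunicamycin, and 3.30, 2.63 and 0 with both. Here too every LPS library lay above every other library. The interaction was -2.93 ± 0.70 (adjusted p = 0.0268), and both agents against LPS gave -1.92 ± 0.49 (adjusted p = 0.00797). The interaction did not pass without control replicate 1 or 2, LPS replicate 2 or 3, or tunicamycin replicate 2 or 3 (adjusted p up to 0.0778). Of the 50-base stretches in the Ifit3 transcripts 51.2% also occur in Ifit3b, as do the printed promoter letters of Ifit3 (chr19:34607754-34607827, plus strand). The sources used here do not say how reads were divided between the pair, so their separate levels are uncertain.

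**Figure D2:**
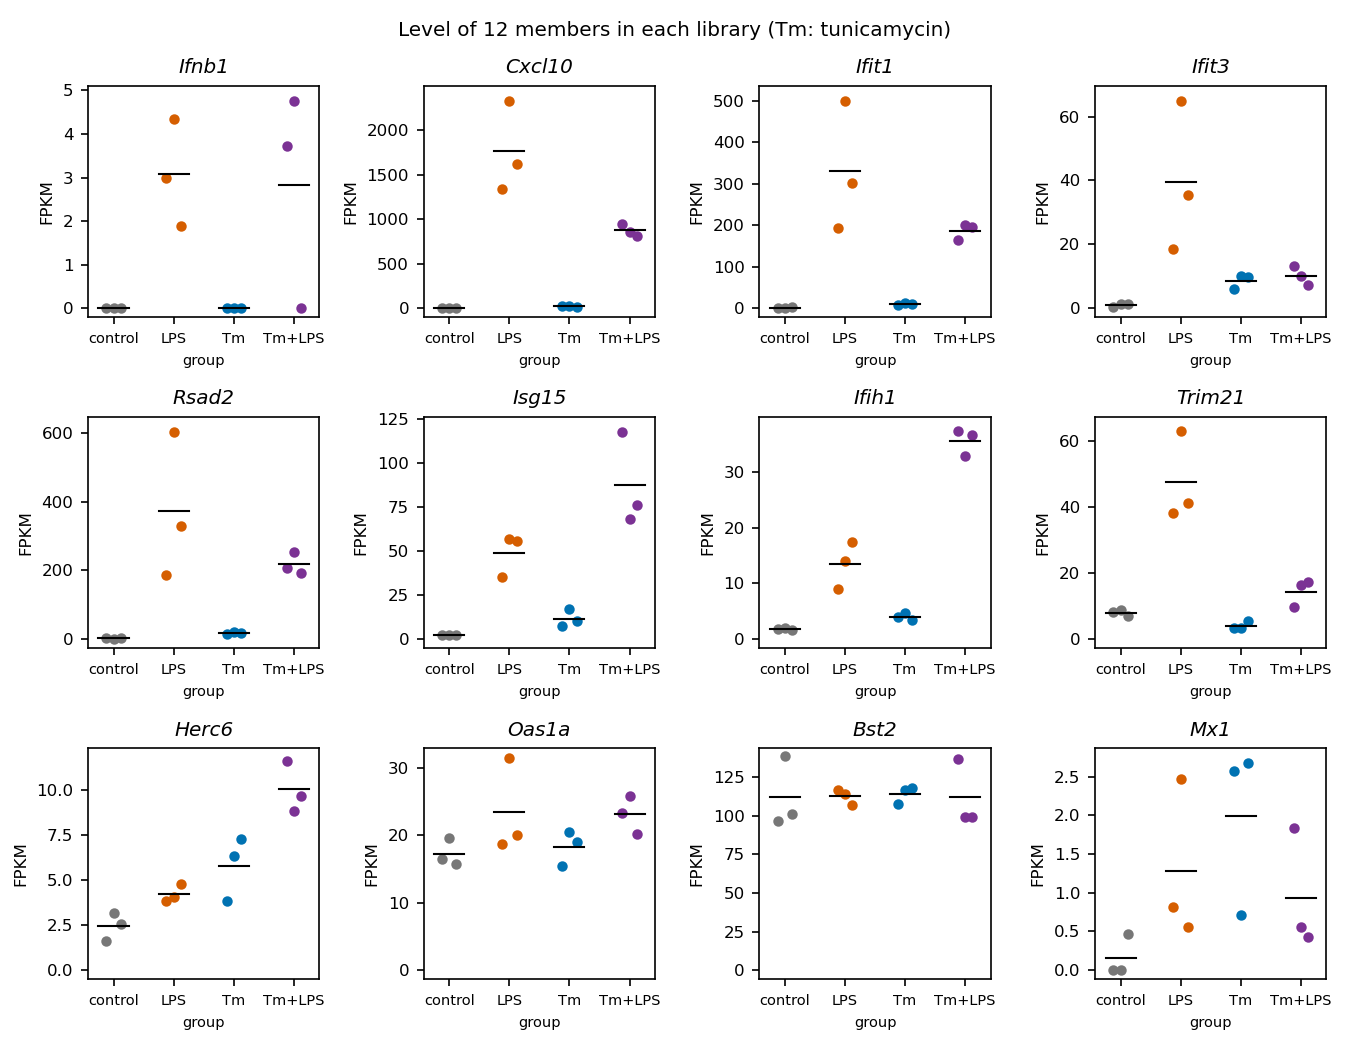
FPKM (linear vertical axes, each with its own range) of 12 genes in each library, with points for the 3 libraries of each of the 4 groups and a line at their mean. Ifit3 with both agents sits beside tunicamycin alone at 7.17 to 13.1 FPKM, Ifih1 with both agents is at 32.8 to 37.3 FPKM, above all other libraries, and Bst2 overlaps in all groups.

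The OAS enzymes make a small messenger that activates RNase L to cleave viral RNA, and the OAS-like proteins are their relatives. Of this family, Oasl1 and Oasl2 rose with LPS. Oas1a, Oas1g and Oas3 did not pass, and Oas2 was not tested. Oasl1, an inhibitor of Irf7 translation, was at 0, 0.104 and 0.340 FPKM in controls, 39.6, 106 and 64.0 with LPS, 1.84, 1.44 and 2.13 with tunicamycin, and 33.5, 40.9 and 34.9 with both. Tunicamycin alone lifted it above every control, and the libraries given both agents overlapped the lowest LPS library. The log2 fold change was 5.85 ± 0.27 with LPS (adjusted p = 4.45e-11) and 1.29 ± 0.27 with tunicamycin (adjusted p = 0.00129), with an interaction of -2.11 ± 0.38 (adjusted p = 0.00348). Both agents against LPS alone gave a log2 difference of -0.81 ± 0.27 (adjusted p = 0.0307). It was -0.46 without LPS replicate 2 (adjusted p = 0.192), and it also did not pass without LPS replicate 3 or without replicate 1 or 3 of the cells given both agents.

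Oasl2 was at 4.14, 7.48 and 5.61 FPKM in controls, 12.8, 22.1 and 19.7 with LPS, 7.57, 15 and 9.25 with tunicamycin, and 18.9, 18.2 and 11.6 with both. Every LPS library lay above every control, and the tunicamycin libraries ran from just above the highest control into the LPS range. It rose with LPS by 1.51 ± 0.27 (adjusted p = 0.000577) and with tunicamycin by 0.76 ± 0.27 (adjusted p = 0.0362), the second of which was 0.51 without tunicamycin replicate 2 (adjusted p = 0.193). The tunicamycin call also did not pass without control replicate 1 or 3 or without tunicamycin replicate 3.

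The catalytic Oas1a was already at 17.3 ± 2.07 FPKM in controls and was at 23.5 ± 7.00 with LPS, 18.3 ± 2.61 with tunicamycin and 23.1 ± 2.87 with both (mean ± SD, n = 3 each). The interval of its LPS effect was 0.00 to 0.78 on the log2 scale (adjusted p = 0.17), which bounds any rise at under 2-fold. Oas3 lay between 1.53 and 13.2 FPKM and Oas1g between 0.198 and 2.96, with overlapping groups. Oas1a and Oas1g share 57.6% of the 50-base stretches of Oas1a, so their split is uncertain. Oas2 ranged from 0 to 1.34 FPKM.

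The Mx GTPases, which trap viral nucleocapsids, were barely detected. Mx1 was at 0, 0 and 0.463 FPKM in controls, 0.811, 2.46 and 0.554 with LPS, 2.57, 0.712 and 2.68 with tunicamycin, and 1.83, 0.554 and 0.429 with both. The tunicamycin and the LPS libraries were above all controls, and those given both agents overlapped them. The rise passed with tunicamycin (log2 fold change 1.31 ± 0.37, adjusted p = 0.0111) and not with LPS (0.91 ± 0.37, adjusted p = 0.106), and it did not pass with tunicamycin when tunicamycin replicate 3 was left out (adjusted p = 0.0549). With 0.1 FPKM instead of 1 added before the log, the rise with LPS passed (2.70, adjusted p = 0.032), so a response to tunicamycin only was not shown. Mx2 was at 0, 0.362 and 0.344 FPKM in controls, 0.946, 1.51 and 0.755 with LPS, 0.0852, 0.508 and 0.176 with tunicamycin, and 0.112, 1.27 and 0 with both. All 3 LPS libraries lay above all controls and all tunicamycin libraries, and 1 library given both agents fell within their range. These levels were too low to be tested here. The annotation marks Mx2 as a polymorphic pseudogene.

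Isg15 encodes a ubiquitin-like protein that is joined to other proteins during infection, and it was among the 3 genes higher with both agents than with LPS. Its FPKM was 2.5, 2.53 and 2.16 in controls, 35.0, 56.5 and 55.8 with LPS, 7.59, 17.2 and 10.0 with tunicamycin, and 118, 68.4 and 76.2 with both. The 4 groups did not overlap and rose in the order control, tunicamycin, LPS, both. LPS raised it by 3.85 ± 0.26 (adjusted p = 5.64e-09), a 14.4-fold rise, and tunicamycin by 1.82 ± 0.26 (adjusted p = 4.22e-05). Both agents exceeded LPS alone by 0.81 ± 0.26 (adjusted p = 0.0254). That call rested on single libraries: the adjusted p was 0.132 without LPS replicate 1 and 0.123 without replicate 1 of the cells given both agents. LPS added 46.7 FPKM without tunicamycin and 75.8 FPKM with it, while the interaction on the log scale was -1.01 ± 0.36 and did not pass (adjusted p = 0.17).

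Herc6, the main ligase that attaches ISG15 in mice, was at 1.59, 3.16 and 2.55 FPKM in controls, 3.86, 4.07 and 4.78 with LPS, 3.82, 6.31 and 7.29 with tunicamycin, and 11.6, 8.85 and 9.65 with both. Both agents gave the 3 highest values, 1.07 ± 0.24 above LPS on the log2 scale (adjusted p = 0.00304). Tunicamycin raised it by 0.98 ± 0.24 (adjusted p = 0.00453), and the LPS effect alone, 0.63 ± 0.24, did not pass (adjusted p = 0.0814).

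Usp18 removes ISG15 and also binds IFNAR2 to damp interferon signalling. It was at 1.97, 5.49 and 7.08 FPKM in controls, 16.9, 36.8 and 36.5 with LPS, 14.5, 16.8 and 14.5 with tunicamycin, and 28.8, 17.2 and 15.5 with both. Tunicamycin alone brought all 3 libraries above every control and just below the lowest LPS library, and libraries given both agents overlapped those given LPS. The LPS effect was 2.45 ± 0.34 without tunicamycin (adjusted p = 4.54e-05) and 0.35 ± 0.34 with it (adjusted p = 0.542), with an interaction of -2.09 ± 0.48 (adjusted p = 0.0215). That interaction did not pass without LPS replicate 2 or 3, tunicamycin replicate 2 or replicate 3 of the cells given both agents (adjusted p up to 0.0682).

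Trim21, an antibody receptor of the cytosol with ubiquitin ligase activity, moved in opposite directions with the 2 agents. Its FPKM was 8.08, 8.88 and 7.07 in controls, 38, 62.9 and 41.2 with LPS, 3.49, 3.32 and 5.40 with tunicamycin, and 9.60, 16.3 and 17.2 with both. The 4 groups did not overlap. Trim21 rose with LPS by 2.39 ± 0.23 (adjusted p = 7.85e-07), fell by 0.85 ± 0.23 with tunicamycin (adjusted p = 0.0103) and was lower with both agents than with LPS by 1.66 ± 0.23, a log2 difference of -1.66 (adjusted p = 6.18e-05). The LPS effect relative to each starting level was not shown to differ (interaction -0.81 ± 0.33, adjusted p = 0.249). Trim25 and Trim30a, ubiquitin ligases that act on RNA sensing and on inflammatory signalling, rose with LPS by 0.60 ± 0.15 and 0.99 ± 0.24 (adjusted p = 0.0108 and 0.00849). The rise of Trim25 did not pass without control replicate 3 or LPS replicate 3 (adjusted p up to 0.0583).

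Parp9, Parp14 and Dtx3l act in ADP-ribosylation, and PARP9 and DTX3L form a complex. All 3 rose with LPS with and without tunicamycin. Parp14 was at 3.29, 4.86 and 3.62 FPKM in controls, 31.7, 47.1 and 51.5 with LPS, 7.20, 8.67 and 6.87 with tunicamycin, and 54.5, 55.3 and 51.9 with both. Its values with both agents were all above those with LPS, by a log2 difference of 0.33 ± 0.18 that did not pass (adjusted p = 0.184). Parp9 and Dtx3l, by contrast, were lower with both agents than with LPS, by log2 differences of -0.57 ± 0.18 (adjusted p = 0.022) and -0.67 ± 0.24 (adjusted p = 0.0484). Neither passed without LPS replicate 2 (adjusted p = 0.0971 and 0.186), LPS replicate 3 or replicate 3 of the cells given both agents, and the call of Dtx3l was lost in 8 of the 12 fits that each left out 1 library. The interaction of Dtx3l, -1.37 ± 0.34 (adjusted p = 0.0365), was lost in 9 of the 12, with adjusted p up to 0.108. The exons of Parp9 and Dtx3l overlap on opposite strands by 458 bases, and the sources used here do not say whether counting used strand.

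Among the enzymes, Rsad2 encodes viperin, which makes a chain-terminating nucleotide, and its neighbour Cmpk2 encodes a kinase of nucleotides. Rsad2 was at 2.62, 0.923 and 3.07 FPKM in controls, 187, 604 and 330.0 with LPS, 15, 21.2 and 17.0 with tunicamycin, and 208, 252 and 192 with both. The LPS libraries spread more than 3-fold and enclosed those given both agents, and the tunicamycin libraries lay above all controls. It rose with LPS by 6.78 ± 0.32 (adjusted p = 7.73e-11) and with tunicamycin by 2.60 ± 0.32 (adjusted p = 1.18e-05). LPS added to tunicamycin raised it by 3.55 ± 0.32 (adjusted p = 4.8e-07), with an interaction of -3.23 ± 0.45 (adjusted p = 0.000414). Both agents against LPS alone gave -0.63 ± 0.32, which did not pass (adjusted p = 0.159). It passed without LPS replicate 1 (-1.04, adjusted p = 0.0165).

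Cmpk2 was at 1.89, 1.41 and 4.27 FPKM in controls, 54.9, 163 and 114 with LPS, 13, 22.0 and 17.6 with tunicamycin, and 66.4, 78.8 and 60.5 with both. Its groups were placed as those of Rsad2, with an LPS effect of 4.94 ± 0.33 (adjusted p = 5.22e-09), a tunicamycin effect of 2.45 ± 0.33 (adjusted p = 2.52e-05) and an interaction of -3.01 ± 0.46 (adjusted p = 0.000906). Both agents against LPS gave -0.56 ± 0.33 (adjusted p = 0.22), and -0.99 without LPS replicate 1, which passed (adjusted p = 0.0209).

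Adar, which edits adenosine to inosine in double-stranded RNA, was at 6.34, 6.47 and 7.57 FPKM in controls, 10.9, 18.5 and 19.5 with LPS, 9.3, 7.13 and 8.01 with tunicamycin, and 8.83, 8.42 and 12.6 with both. The LPS libraries were all above the controls, and 1 library given both agents exceeded the lowest of them. Adar rose with LPS by 1.12 ± 0.22 (adjusted p = 0.00129), and both agents against LPS gave -0.64 ± 0.22 (adjusted p = 0.0354), which did not pass without LPS replicate 2 (adjusted p = 0.136), LPS replicate 3 (adjusted p = 0.145) or replicate 1 or 2 of the cells given both agents. Its exons overlap 1365 bases of Chrnb2 on the other strand. Samd9l, a restriction factor of poxviruses, rose with LPS by 1.49 ± 0.22 without tunicamycin and by 1.40 ± 0.22 with it. Isg20, an exonuclease of single-stranded RNA, did not exceed 4.81 FPKM in any library, and its rise with LPS (adjusted p = 0.0372) did not pass without control replicate 1 or 2 or LPS replicate 1 or 3.

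The membrane effectors were abundant and passed in no comparison with all libraries in the fit. Ifitm3, which blocks the fusion of virus with the endosome membrane, was at 219, 411 and 247 FPKM in controls, 274, 511 and 299.6 with LPS, 171, 279.6 and 256 with tunicamycin, and 366, 218 and 186 with both. All 4 groups overlapped. Without replicate 1 of the cells given both agents, Ifitm3 passed as lower with both agents than with LPS (log2 difference -0.78, adjusted p = 0.0437). Bst2, or tetherin, which holds budding particles to the cell surface, was at 96.7, 139 and 101 FPKM in controls, 117, 114 and 107 with LPS, 107, 116 and 118 with tunicamycin, and 137, 99.2 and 99.3 with both. The interval of its LPS effect was -0.27 to 0.32 and that of both agents against LPS was -0.32 to 0.27 on the log2 scale. In controls Ifitm3 and Bst2 had the highest length-corrected levels of the 42 genes.

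Ifi27l2a was the third most abundant in controls, at 63.0, 62.2 and 64.9 FPKM, and was at 66.4, 79.0 and 63.3 with LPS, 34.4, 43.0 and 52.9 with tunicamycin, and 38.1, 33.5 and 44.9 with both. All 6 libraries given tunicamycin lay below all 6 not given it. It fell by 0.55 ± 0.15 with tunicamycin (adjusted p = 0.00789) and was lower with both agents than with LPS by a log2 difference of -0.83 ± 0.15 (adjusted p = 0.000507), while LPS alone did not pass (adjusted p = 0.636). Rtp4, a chaperone that helps receptors reach the cell surface, was at 10.7 ± 6.04 FPKM in controls, 115 ± 36.8 with LPS, 18.7 ± 4.29 with tunicamycin and 47.7 ± 3.29 with both (mean ± SD, n = 3 each). Its LPS effect was 3.41 ± 0.30 (adjusted p = 2.31e-07), with an interaction of -2.08 ± 0.43 (adjusted p = 0.0106, and 0.0862 with no filter on low values). Xaf1, a pro-apoptotic factor, rose with LPS by 1.94 ± 0.21 and had an interaction of -1.42 ± 0.30 (adjusted p = 0.0127). Ifi35 was at 26.1 to 42.4 FPKM throughout, and Ifi44 did not exceed 0.618 FPKM.

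The 3 chemokines attract T and NK cells that carry CXCR3, and they differed widely in level. Cxcl10 was at 3.08, 1.34 and 3.52 FPKM in controls, 1345, 2332 and 1623 with LPS, 25.8, 27.1 and 16.3 with tunicamycin, and 945, 862 and 815 with both. The 4 groups did not overlap, and with LPS Cxcl10 was the most abundant of the 42 genes. It rose with LPS by 8.94 ± 0.23 (adjusted p = 2.32e-14), a 491-fold rise, and with tunicamycin alone by 2.75 ± 0.23 (adjusted p = 1.76e-07), a 6.71-fold rise. Both agents gave 49.5% of the LPS mean, a log2 difference of -0.98 ± 0.23 (adjusted p = 0.00496), and the interaction was -3.73 ± 0.33 (adjusted p = 4.17e-06).

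Cxcl11 was listed at 0 in all controls and at 0.504, 1.79 and 1.03 FPKM with LPS, 0, 1.18 and 0 with tunicamycin, and 1.51, 0.389 and 0.713 with both. Its rise with LPS passed (adjusted p = 0.0382) at levels near the 1 FPKM limit and did not pass with any 1 control library, LPS replicate 2 or LPS replicate 3 left out (adjusted p up to 0.169). The annotation marks it as a polymorphic pseudogene, and its exons overlap a processed pseudogene on the other strand. Cxcl9, which depends mainly on interferon gamma, was listed at 0 in 10 of the 12 libraries, with 0.0796 FPKM in 1 LPS library and 0.461 FPKM in 1 library given both agents.

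**Figure D3:**
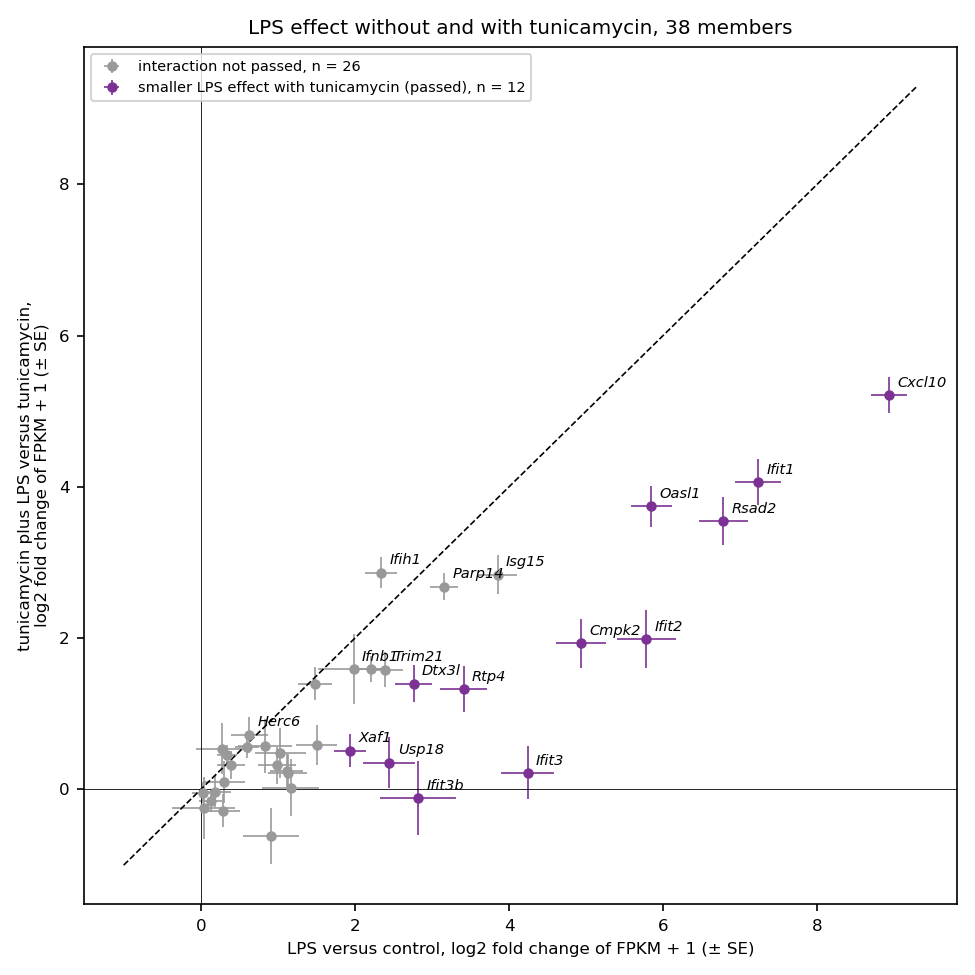
Log2 fold change with LPS of the 38 tested genes in cells not given tunicamycin (horizontal) and in cells given it (vertical), as points with SE bars and a dashed line of equal effect. The 12 genes whose interaction passed (purple) lie below the line, with Ifit3 at 4.24 and 0.22, while Ifih1 lies above it at 2.34 and 2.87 without passing.

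The interaction and the final level are separate measurements, since the interaction sets each LPS effect against its own starting level, and tunicamycin alone had raised many of those levels. For Ifit1, Rsad2, Cmpk2, Usp18 and Xaf1 the interaction passed and the level with both agents was not shown to differ from that with LPS alone, with log2 differences of -0.72, -0.63, -0.56, -0.50 and -0.57. For the first 3 of these genes that depended on LPS replicate 1, since without it the differences were -1.06, -1.04 and -0.99 and passed (adjusted p = 0.0172, 0.0165 and 0.0209). Single control libraries mattered too: Ifit1 passed without control replicate 3 (adjusted p = 0.0411) and Xaf1 without control replicate 2 (adjusted p = 0.0387). In linear terms LPS added 330 FPKM of Ifit1 without tunicamycin and 177 FPKM with it, and 371 and 200 FPKM of Rsad2. For Ifit2, Ifit3, Ifit3b, Oasl1, Dtx3l, Rtp4 and Cxcl10 both measurements passed. Only Ifit3 and Cxcl10 kept both calls under every alternative. The level call of Dtx3l was lost in 8 and its interaction in 9 of the 12 fits that each left out 1 library. The level call of Oasl1 was lost in 4 of these fits, that of Ifit2 in 1, and the interaction of Ifit3b in 6. With a pseudocount of 0.1 neither call of Ifit3b passed, and with no filter the interaction of Rtp4 did not. Trim21, Parp9, Adar, Eif2ak2 and Ifi27l2a were lower in level with both agents than with LPS and did not pass the interaction. These comparisons share libraries and are not independent of each other.

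**Figure D4:**
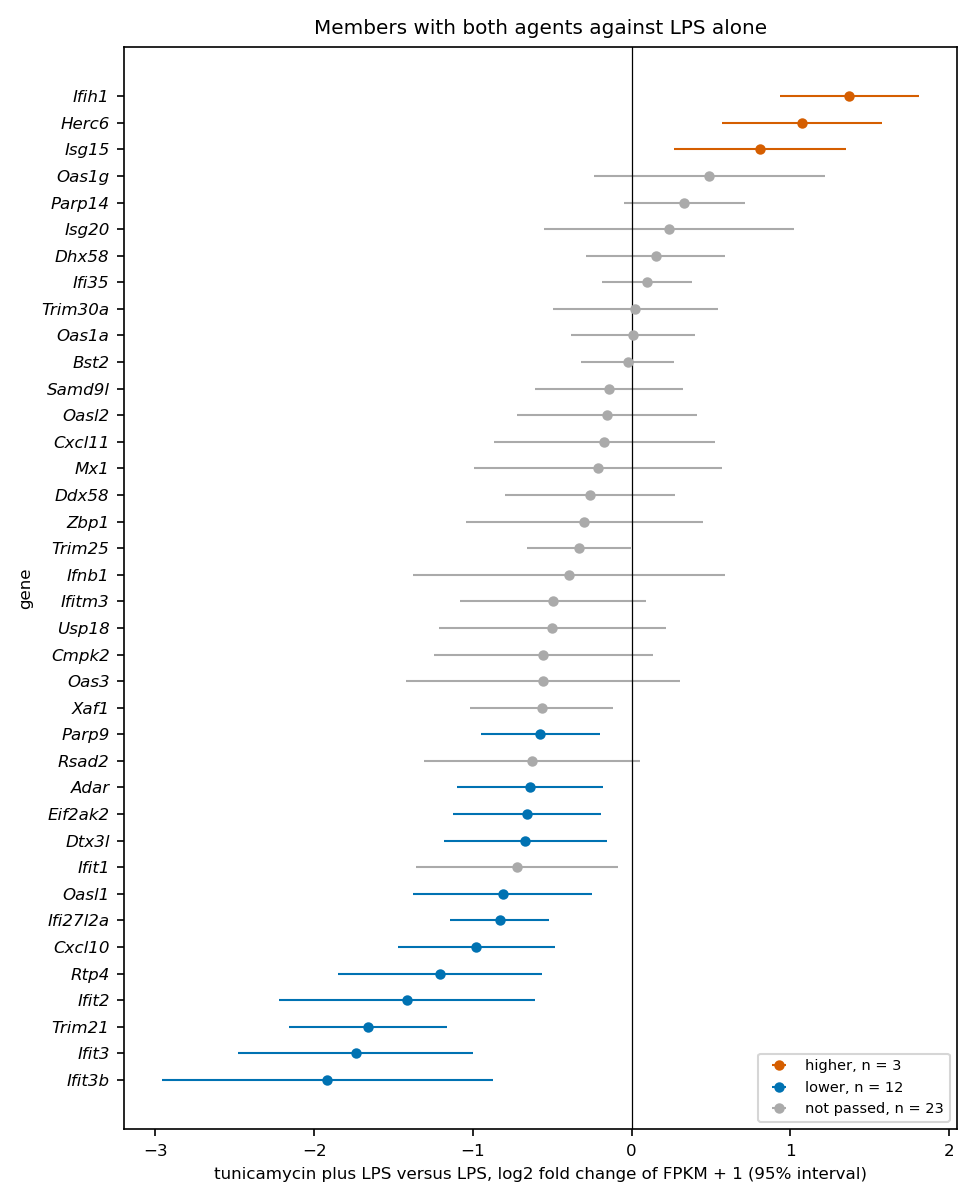
Log2 fold change of the 38 tested genes in cells given both agents against LPS alone, with 95% intervals, ordered by size and coloured by whether the gene was higher (3), lower (12) or did not pass (23). Ifih1 is at 1.37, Isg15 at 0.81 and Ifit3b at -1.92, and the interval of Ifnb1 runs from -1.38 to 0.59.

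The machinery upstream of these genes was followed in lists of context genes. Of 12 genes that lead from TLR4 and the cytosolic sensors to interferon, 7 rose and 2 fell with LPS, 4 rose and 2 fell with tunicamycin, and 1 was higher and 1 lower with both agents than with LPS. Over all genes these shares were 10.5% and 7.86%, 17.9% and 16.6%, and 13.8% and 15.1%, so the falls with tunicamycin were near the share of all genes and the calls with both agents were below it. Ticam2, which encodes the TLR4 adaptor TRAM, was the gene that was higher, and it was at 6.19, 7.40 and 7.69 FPKM in controls, 19.8, 18.2 and 26.0 with LPS, 76.5, 76.9 and 82.2 with tunicamycin, and 75.0, 86.1 and 73.6 with both. All 6 libraries given tunicamycin were above all others, with a log2 fold change of 3.30 ± 0.14 for tunicamycin (adjusted p = 3.77e-11). The gene that was lower was Irf5, a transcription factor of inflammatory genes, at -0.69 ± 0.11 (adjusted p = 0.000163). Tlr4 itself fell by 1.73 ± 0.19 with LPS (adjusted p = 2.97e-06), and tunicamycin was not shown to change it (adjusted p = 0.502).

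Of 8 genes of the interferon receptor and its signalling, 6 rose and 0 fell with LPS, and 6 rose and 1 fell with tunicamycin. Both agents against LPS gave 3 higher (Tyk2, Stat2 and Jak1) and 3 lower (Ifnar1, Irf9 and Ifnar2). Over all genes 10.5% rose and 7.86% fell with LPS, and 17.9% rose and 16.6% fell with tunicamycin. With both agents against LPS 13.8% were higher and 15.1% lower. The 1 fall with tunicamycin (12.5%) was thus below the share of all genes. Ifnar1, the receptor chain bound by TYK2, was at 25.2, 23.5 and 26.5 FPKM in controls, 38.7, 50.5 and 43.2 with LPS, 17.2, 17.0 and 17.0 with tunicamycin, and 21.9, 22.6 and 24.2 with both. With both agents it lay below every LPS library, by a log2 difference of -0.91 ± 0.12 (adjusted p = 4.41e-05). Irf9, a DNA-binding part of the complex that acts on ISREs, was at 15.1, 17.5 and 15.3 FPKM in controls, 46.6, 49.4 and 46.1 with LPS, 29.9, 33.4 and 29.5 with tunicamycin, and 28.5, 38.7 and 31.4 with both. It was not shown to change when LPS was added to tunicamycin (0.08 ± 0.13, adjusted p = 0.755), and its interaction was -1.44 ± 0.18 (adjusted p = 0.000159). Tyk2 was higher with both agents than with LPS by 0.99 ± 0.14 (adjusted p = 7.79e-05).

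Irf1, a transcription factor that binds ISREs, was at 21.8, 16.3 and 23.2 FPKM in controls, 279, 370 and 298 with LPS, 45.2, 52.8 and 58.5 with tunicamycin, and 335, 329.7 and 346 with both. It reached like levels with LPS and with both agents (log2 difference 0.10 ± 0.14, adjusted p = 0.612), with an interaction of -1.21 ± 0.19 (adjusted p = 0.00115).

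Of 6 brakes on interferon signalling, 3 rose with LPS and 2 with tunicamycin, and with both agents against LPS 1 was higher (Ptpn2) and 2 were lower. The lower ones encode SOCS1 and SOCS3, which inhibit JAK kinases. Over all genes 10.5% rose with LPS and 17.9% with tunicamycin, and with both agents against LPS 13.8% were higher and 15.1% lower. The 1 higher brake (16.7%) was thus near the share of all genes. Socs1 was at 0.209, 1.28 and 0.214 FPKM in controls, 21.9, 41.7 and 30.4 with LPS, 0.975, 0.302 and 0.672 with tunicamycin, and 7.48, 5.54 and 6.01 with both. Every library given both agents lay below every LPS library, by a log2 difference of -2.10 ± 0.29 (adjusted p = 4.2e-05). Socs3 differed in the same comparison by -1.21 ± 0.15 (adjusted p = 1.56e-05).

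Of the 7 macrophage markers, Mertk fell by 1.59 with LPS on the log2 scale (adjusted p = 0.000545). Fcgr1 and Cd68 fell with tunicamycin by 1.15 and 0.58 (adjusted p = 0.000365 and 4.76e-05), and with both agents against LPS they differed by -1.10 and -0.41 (adjusted p = 0.000726 and 0.0014). Adgre1, by contrast, rose with tunicamycin by 0.38 (adjusted p = 0.0419). It was not shown to differ with both agents against LPS (adjusted p = 0.9). Markers of other cell types moved with the groups in part. Sdc1, of the plasma cell list, was lower with both agents than with LPS (log2 difference -0.68, adjusted p = 0.0244). Of 5 neutrophil markers in the table, the summed FPKM was 85.4 to 125 in controls, 190 to 314 with LPS, 14.3 to 25.2 with tunicamycin and 17.1 to 31.4 with both. S100a8 made up 57.9 to 77.8 FPKM of this in controls and 102 to 187 FPKM with LPS. Stromal markers summed to 7.53 to 10.3 FPKM in controls, 8.48 to 14.6 with LPS, 19.4 to 34.7 with tunicamycin and 16.1 to 41.5 with both. Dendritic cell markers other than Bst2 summed to 0.179 to 0.594 FPKM in controls, 3.91 to 8.78 with LPS, 0.359 to 1.14 with tunicamycin and 2.18 to 5.27 with both. Most of the LPS sum was Ccr7, listed at 0 in all controls and at 2.03, 2.73 and 5.06 FPKM with LPS. Siglech and Flt3 did not exceed 0.148 FPKM in any library. The part of other cell types in the values above was not tested.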

How the data were processed

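Gene levels in 12 libraries of mouse macrophages were taken from 1 deposited table of FPKM values, with 1 row per gene symbol. Per the submitters' processing notes, the authors' tools were Cufflinks 2.2.1, SAMtools 0.1.19, Bowtie2 2.2.3 and TopHat2 2.0.13, and the build was mm10. The annotation, the scaling between libraries, the use of strand and read totals are not given in the sources used here, so no count test was possible.

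Genes with an FPKM of 1 or more in at least 3 libraries (10311) were fitted as log2(FPKM + 1) with limma 3.58.1 in R 4.3.3 (lmFit, eBayes with trend), with all 12 libraries in the fit and a mean for each of the 4 groups. The 5 contrasts are named in the text, and p-values were adjusted by Benjamini-Hochberg over all genes tested, with a threshold of 0.05. The method was tested on simulated data. Alternatives were a pseudocount of 0.1, no filter, median-of-ratios scaling, quantile normalization, a replicate block, a fit on the compared groups alone, and each library left out in turn.

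The 42 genes, the context genes and the marker lists were chosen with earlier results of these data known. Values in every library are given for the ligand, the most abundant gene of each role, the 4 largest changes in each direction that passed in each contrast, and 17 genes set by name; other genes are given by counts and ranges. Gene positions and overlaps came from GENCODE M21, and promoter windows from RefSeq, searched with Python 3.11.15. Some genes of the context and marker lists are not reported here.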

Additional observations from a re-analysis of the deposited data

Results flagged for a closer look

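For 12 of the 38 tested genes the LPS effect differed between cells given tunicamycin and cells not given it, by the interaction test of limma. With adjustment over all genes, the interaction passed as negative for 1.96% and as positive for 1.41% of all genes. The values of the 12 genes are all negative, so the log2 effect of LPS was smaller with tunicamycin. The difference was -4.02 for Ifit3, -3.80 for Ifit2, -3.73 for Cxcl10, -3.23 for Rsad2, -3.17 for Ifit1, -3.01 for Cmpk2 and -2.93 for Ifit3b. It was -2.11 for Oasl1, -2.09 for Usp18, -2.08 for Rtp4, -1.42 for Xaf1 and -1.37 for Dtx3l. The calls of Dtx3l, Ifit3b and Usp18 were lost in 9, 6 and 4 of the 12 fits that each left out 1 library. The groups hold 3 libraries each, so single libraries far from their group were not looked for by a test.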

How the results depend on the processing

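None of the values changed sign across the threshold: over the tested genes, contrasts and alternatives, 3224 kept their call, 137 no longer passed, 21 newly passed and 0 reversed. With a pseudocount of 0.1 the median log2 fold change of the 38 genes was 2.44 for LPS (1.5 with a pseudocount of 1), -0.51 for both agents against LPS, 0.67 for both against tunicamycin and -0.98 for the interaction. Quantile normalization gave a median of -0.66 for the interaction. With the pseudocount of 0.1, Ifit3b, Oasl1 and Dtx3l did not pass as lower with both agents than with LPS (adjusted p = 0.059, 0.176 and 0.0782). The interactions of Ifit3b and Dtx3l did not pass either (adjusted p = 0.0678 and 0.0519). With no filter, 7 genes instead of 12 were lower with both agents than with LPS (Ifit2, Oasl1, Dtx3l, Adar and Eif2ak2 not passing) and Isg15 was not shown to be higher (adjusted p = 0.0877). Under the same setting 15 instead of 19 were higher with tunicamycin, and 8 instead of 12 had a negative interaction, with Ifit3b, Usp18, Dtx3l and Rtp4 not passing (adjusted p = 0.137, 0.118, 0.127 and 0.0862). Leaving out 1 library at a time gave 23 to 26 genes higher with LPS, and 14 to 20 higher and 2 lower with tunicamycin. It gave 2 to 3 higher and 7 to 14 lower with both agents against LPS, 15 to 18 higher against tunicamycin, and 9 to 13 with a negative interaction. The medians then ran from 1.35 to 1.74 for LPS, 0.51 to 0.84 for tunicamycin, -0.58 to -0.19 for both against LPS, 0.45 to 0.69 for both against tunicamycin and -0.90 to -0.61 for the interaction. Context genes that fell with LPS numbered 1 to 2, and those higher with both agents than with LPS 3 to 5. The shares of all genes called under each alternative, the replicate block included, are not given here. These counts thus do not show whether the 38 genes moved apart from the whole table. The causes were not tested.

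Replicate numbers are shared by the groups, and no source says that they mark an animal or a day. Deviations of same-numbered libraries from their group means correlated at -0.04 to 0.09 over 18 pairs, with 0 over 0.1. Differently numbered libraries gave -0.11 to 0.05, so some same-numbered pairs lay above all of these. In controls the median log2(FPKM + 1) of the 38 genes was highest in replicate 2 (2.65) and lowest in replicate 1 (2.07). That order also held with LPS (5.13 and 4.24) and with tunicamycin (3.43 and 3.11). With both agents replicate 1 was highest (4.27) and replicate 3 lowest (4.16). The correlations were small and no label pairs the samples, so the main fit left the numbers out, and pairing was not excluded. With the replicate block, 26 genes rose with LPS, 20 rose and 2 fell with tunicamycin, 3 were higher and 14 lower with both agents than with LPS, and 12 had a negative interaction. Ddx58 with tunicamycin (adjusted p = 0.0392), and Ifit1 (adjusted p = 0.0402) and Xaf1 (adjusted p = 0.0466) with both agents against LPS, passed under the block.

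FPKM carry no read counts, so no counting error can be given, and values near 1 FPKM (Ifnb1, Ifit3b, Oas1g, Mx1, Isg20 and Cxcl11) are the least certain. With 3 libraries a group, a comparison that did not pass does not show equal levels.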
